A study of Mus musculus with 10 samples.

Results

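The replication licensing genes described here are 10 of the 23234 gene symbols in the table: the helicase subunits Mcm2, Mcm3, Mcm4, Mcm5, Mcm6 and Mcm7, the loading factors Cdc6 and Cdt1, and the activation factors Mcm10 and Gins2. They were chosen by name for their function, and all 10 were found. The series holds 10 RNA-seq libraries of cells from mouse ovarian follicles. Whole cumulus-oocyte complexes (COC), each an oocyte with the cumulus cells around it, came from 3-week-old mice primed with PMSG, a gonadotropin that drives follicle growth, with 1 library of strain DBA/2 and 1 of strain BDF1. Mural granulosa cells, the layer along the wall of the follicle, were taken at 2 months of age from C57BL/6 mice (n = 2); the protocol names eCG priming, the same hormone, for mural cells. Cumulus cells came from C57BL/6 mice aged 10 months (n = 3) and 2 months (n = 3), and no source used here says whether their donors were primed. The labels name no genetic change or drug treatment of the mice, but give one culture medium for all samples that contains milrinone, a phosphodiesterase inhibitor. They do not say how many animals went into a library, so p-values measure the spread between libraries, which may be partly technical.

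Licensing prepares DNA to be copied once per cell cycle. The origin recognition complex binds DNA and, with Cdc6 and Cdt1, loads the ring of Mcm2 to Mcm7, the motor of the replicative helicase, before S phase. Cdc45 and the GINS complex, of which Gins2 is a subunit, then join the ring, and Mcm10 helps the assembled helicase start to unwind DNA; geminin (Gmnn) binds Cdt1 and prevents a repeat of loading. In growing follicles granulosa cells divide, and E2F transcription factors are known in mammals to drive many of these genes as cells enter S phase.

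Promoter sequences from RefSeq (GRCm38.p6, 250 bases before to 50 after each gene's start) were found by symbol for 8 of the 10 genes, not for Mcm4 and Gins2. They are shown as a description of the genes, and no link between their letters and the levels was tested. On both strands, 4 strings that E2F factors are known to bind were searched: TTTCCCGC, TTTGGCGC, TTTCGCGC and TTTGCCGC. At least 1 was found at 6 of the 8 genes (Mcm3, Mcm5, Mcm6, Mcm7, Cdc6 and Cdt1), against 2.6% of 27025 genes with a window and 19 of 59 (32.2%) of the related replication and cell cycle genes described further on. One site per gene follows, read 5′ to 3′ on the gene's strand, with the matched string in capitals and the first matched base numbered from the transcript's first base as +1.
Mcm3 (chr1:20820278-20820301, minus strand, +20): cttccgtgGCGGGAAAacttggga
Mcm5 (chr8:75109348-75109371, plus strand, -153): ccaagaacTTTCGCGCcaaaacgt
Mcm6 (chr1:128359737-128359760, minus strand, -47): tggacgggTTTGGCGCgaagtagc
Mcm7 (chr5:138171852-138171875, minus strand, +17): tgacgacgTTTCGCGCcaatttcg
Cdc6 (chr11:98908005-98908028, plus strand, -138): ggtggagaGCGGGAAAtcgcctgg
Cdt1 (chr8:122568039-122568062, plus strand, +33): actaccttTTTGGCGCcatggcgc

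The string CCAAT, the core of the site that NF-Y binds, was found on either strand at 6 of the 8 genes (Mcm2, Mcm3, Mcm5, Mcm6, Mcm7 and Mcm10), against 41.1% of genes with a window and 36 of 59 (61.0%) of the related genes. The promoters of Mcm6 and Mcm10 differ in these letters and are given in full for the 200 bases before the start, with E2F and CCAAT matches of either strand in capitals.
Mcm6 (chr1:128359706-128359905, minus strand): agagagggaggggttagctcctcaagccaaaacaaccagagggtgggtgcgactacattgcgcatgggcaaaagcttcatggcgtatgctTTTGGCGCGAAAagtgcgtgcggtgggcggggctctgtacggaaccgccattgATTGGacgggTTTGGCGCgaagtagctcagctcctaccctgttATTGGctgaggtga
Mcm10 (chr2:5012792-5012991, minus strand): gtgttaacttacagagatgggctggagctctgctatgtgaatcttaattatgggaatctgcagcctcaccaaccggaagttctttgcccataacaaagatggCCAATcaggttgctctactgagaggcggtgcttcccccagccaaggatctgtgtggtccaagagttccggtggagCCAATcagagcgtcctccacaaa
Mcm6 had 3 E2F matches, of which 2 overlap on opposite strands within the run TTTGGCGCGAAA, and 2 CCAAT matches. Mcm10 had no E2F match and 3 CCAAT matches, the last of them after the transcript start and so not in the printed run. The last matched bases of Mcm5, GCGC, also belong to an overlapping match on the other strand, and the E2F match of Mcm7 shares a base with a CCAAT match. A match describes letters and is not evidence that a factor binds there, and binding was not measured.

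Levels are FPKM, fragments scaled by transcript length and library size. Comparisons between genes are of FPKM only and depend on the annotation used, which is not known here. Summed FPKM per library ran from 470377 to 603460. Absolute read depth is not given, but in genes with few reads the FPKM of libraries stand in fixed steps, and the commonest ratio between libraries gives their relative depth. By this measure the COC libraries had 0.254 (DBA/2) and 0.259 (BDF1) of the depth of the second 2-month cumulus library, while the 8 C57BL/6 libraries ranged from 0.913 to 1.30, so COC values carry the larger counting error. The granulosa markers Foxl2, Fshr, Amhr2, Inha and Nr5a2 were above 0 in all 10 libraries. Lhcgr, the luteinizing hormone receptor of mural cells, was at 279.9 and 459 FPKM in mural cells, against 1.93, 12.5 and 62.7 FPKM in 10-month and 2.02, 1.41 and 1.63 FPKM in 2-month cumulus cells. The third 10-month library thus stood apart from the others of its group. Gdf9, made by the oocyte, was at 894 and 951 FPKM in COC and at 0.647 to 260.5 FPKM in the 8 other libraries, so most cumulus libraries also held oocyte RNA.

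Mural cells had lower levels of all 10 licensing genes than 2-month cumulus cells, and for each gene the mural libraries lay below all 3 of the cumulus libraries. Mural means were 34.1% (Mcm5) to 48.5% (Mcm3) of the 2-month cumulus means. All 10 passed limma's test as lower, against a background of 11.2% of 12412 genes called lower and 20.9% called in either direction. For groups that do not overlap, with mural cells lower, the background was 32.0% of genes. The median log2 difference, mural minus 2-month cumulus on the log2(FPKM + 1) scale used throughout, was -1.28 over the 10 genes and -0.08 over all genes tested. The mural libraries had the lowest summed FPKM, 482704 and 470377, against 552361 to 603460 in 2-month cumulus cells. With libraries scaled to the same sum, Mir and Snor genes left out, these medians were -1.09 and 0.11. All 10 genes were still called lower, beside 957 of all genes tested.

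Mcm6 and Mcm7 had FPKM among the highest of the helicase subunits. Mcm6 was at 42.6 and 41.5 FPKM in mural cells, at 88.7, 89.4 and 65.8 FPKM in 10-month cumulus cells, and at 112, 114 and 98.6 FPKM in 2-month cumulus cells. Mcm7 was at 45.9 and 43.0 FPKM in mural cells, at 88.5, 97.5 and 63.4 FPKM in 10-month cumulus cells, and at 129, 116 and 96.6 FPKM in 2-month cumulus cells. In both genes the mural libraries were lowest, and the third 10-month library was the lowest of the cumulus libraries. Mcm6 fell by 1.34 ± 0.17 (SE) in mural against 2-month cumulus cells (limma, adjusted p = 0.00486), and Mcm7 fell by 1.33 ± 0.21 (limma, adjusted p = 0.00763). In RefSeq, Mcm7 overlaps Ap4m1 (6.34 to 14.2 FPKM) and 3 microRNA genes, and Gins2 overlaps Gse1 (0.919 to 12.9 FPKM), so reads of these genes could be assigned to either.

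Mcm3, at 48.5 and 54.3 FPKM in mural cells, was at 71.3, 82.8 and 54.2 FPKM in 10-month and 114, 117 and 87.5 FPKM in 2-month cumulus cells. Mcm2 was at 31.0 and 30.9 FPKM in mural cells, at 56.3, 59.3 and 40.7 FPKM in 10-month cumulus cells, and at 86.9, 78.2 and 63.2 FPKM in 2-month cumulus cells. For Mcm3 the third 10-month library lay between the mural libraries, and for Mcm2 all 3 groups were separate. Mcm3 fell by 1.02 ± 0.21 (SE) in mural against 2-month cumulus cells (limma, adjusted p = 0.0159), and Mcm2 fell by 1.26 ± 0.20 (limma, adjusted p = 0.0080).

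Mcm5, which sits beside Mcm2 where the ring opens, was at 26.2 and 25.3 FPKM in mural cells, at 57.9, 55.2 and 36.1 FPKM in 10-month cumulus cells, and at 86.2, 71.8 and 68.7 FPKM in 2-month cumulus cells. Mcm4 had the lowest FPKM of the subunits, at 21.7 and 22.6 FPKM in mural cells, at 31.3, 36.6 and 28.2 FPKM in 10-month cumulus cells, and at 47.2, 44.8 and 45.7 FPKM in 2-month cumulus cells. The 3 groups did not overlap in either gene. Mcm5 fell by 1.51 ± 0.22 (SE) in mural against 2-month cumulus cells (limma, adjusted p = 0.00622), and Mcm4 fell by 1.02 ± 0.14 (limma, adjusted p = 0.00577).

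**Figure D1:**
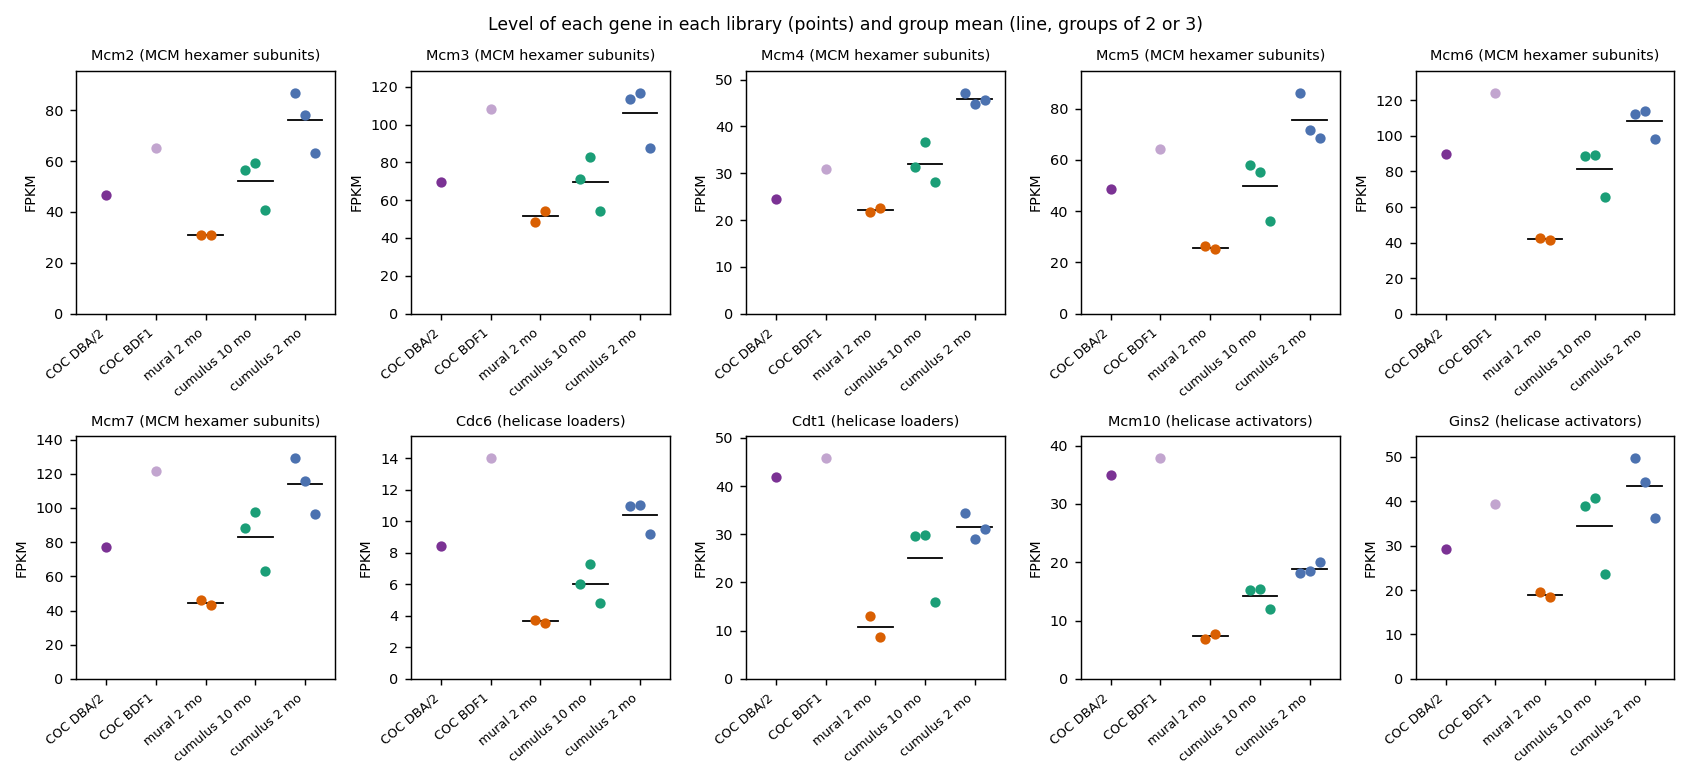
FPKM of each of the 10 licensing genes in every library (y axis, FPKM, 1 panel per gene), by group (x axis); points are libraries and lines are means of groups with 2 or 3 libraries. The mural libraries are below all 2-month cumulus libraries in every panel, for example 42.6 and 41.5 against 98.6 to 114 FPKM for Mcm6.

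In the C57BL/6 libraries the loading factors had lower FPKM than most helicase subunits. Cdc6, an ATPase that helps place the ring on DNA, was at 3.75 and 3.58 FPKM in mural cells, at 6.02, 7.31 and 4.81 FPKM in 10-month cumulus cells, and at 11.0, 11.1 and 9.20 FPKM in 2-month cumulus cells. Cdt1, which escorts the ring to origins, was at 13.1 and 8.65 FPKM in mural cells, at 29.7, 29.9 and 16.0 FPKM in 10-month cumulus cells, and at 34.5, 29.1 and 31.1 FPKM in 2-month cumulus cells. Cdc6 separated the 3 groups, whereas the cumulus ages overlapped in Cdt1. Cdc6 fell by 1.29 ± 0.19 (SE) in mural against 2-month cumulus cells (limma, adjusted p = 0.00625), and Cdt1 fell by 1.48 ± 0.29 (limma, adjusted p = 0.0136).

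Of the activation factors, Mcm10 was at 6.82 and 7.75 FPKM in mural cells, at 15.2, 15.4 and 11.9 FPKM in 10-month cumulus cells, and at 18.2, 18.6 and 20.0 FPKM in 2-month cumulus cells. Gins2 was at 19.5 and 18.4 FPKM in mural cells, at 38.9, 40.8 and 23.6 FPKM in 10-month cumulus cells, and at 49.7, 44.2 and 36.3 FPKM in 2-month cumulus cells. The groups were separate for Mcm10, and the cumulus ages overlapped for Gins2. Mcm10 fell by 1.27 ± 0.15 (SE) in mural against 2-month cumulus cells (limma, adjusted p = 0.00455), and Gins2 fell by 1.15 ± 0.25 (limma, adjusted p = 0.0179).

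**Figure D2:**
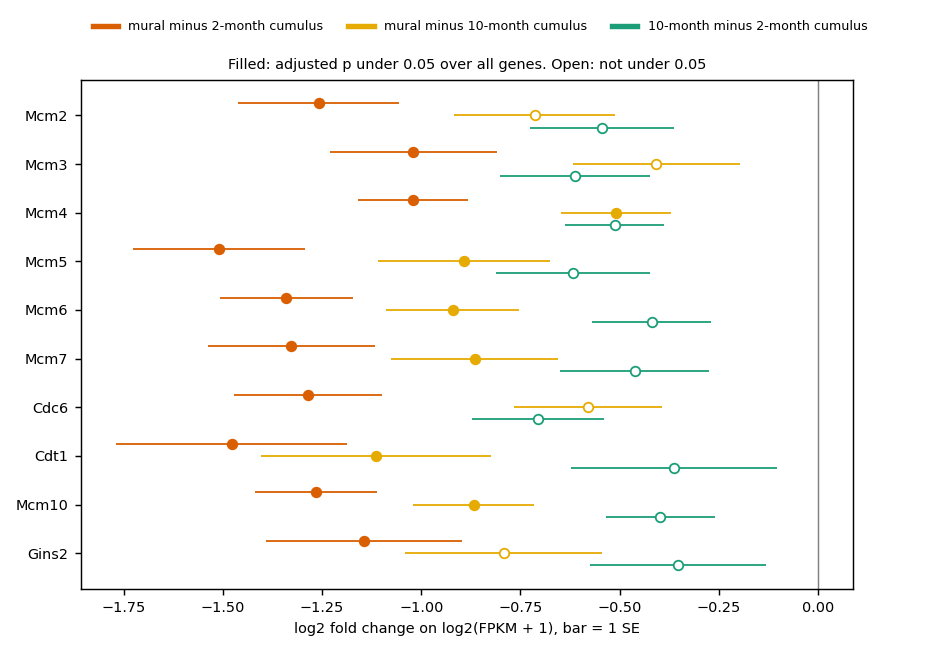
Log2 difference with its standard error (x axis, log2 of FPKM + 1) for the 10 licensing genes (rows) in the 3 comparisons of C57BL/6 groups; filled points had an adjusted p under 0.05. Mural minus 2-month cumulus values run from -1.51 (Mcm5) to -1.02 (Mcm3 and Mcm4), and 10-month minus 2-month values from -0.71 (Cdc6) to -0.35 (Gins2).

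The count of 10 rested on both mural libraries. It fell when either was left out, which leaves 1 mural library, and so did the count over all genes. The differences then ran from -1.49 (Mcm5) to -1.05 (Mcm4) without the second mural library. Without the first they ran from -1.75 (Cdt1) to -0.94 (Mcm3). The count was 9 without the first, 8 without the second and 10 without the third 2-month cumulus library. Over all genes 1698, 1164 and 1850 were then called, against 2599 with all libraries. Some markers of other cells moved with this comparison. Summed theca and stroma markers (8 genes) were at 107 and 173 FPKM in mural cells, against 6.62 to 7.39 FPKM in 2-month cumulus cells. Immune markers (8 genes) were at 19.9 and 53.5 FPKM in mural cells, against 4.34 to 6.27 FPKM in 2-month cumulus cells. Endothelial markers (5 genes) were at 17.1 and 43.3 FPKM in mural cells, against 1.60 to 4.76 FPKM in 2-month cumulus cells. None of these markers was at 0 in a mural library. Erythroid markers (5 genes) were at 104 and 47.6 FPKM in mural cells, against 13.3 to 18.3 FPKM in 2-month cumulus cells. Surface epithelium markers (7 genes) overlapped, at 50.0 and 31.2 FPKM in mural and 26.4 to 34.9 FPKM in 2-month cumulus cells. The part of these markers in the result was not tested. In bulk RNA, fewer dividing cells and less of a transcript per cell cannot be told apart. Oocyte markers (10 genes) summed to 151 and 18.9 FPKM in mural cells, against 227, 2.16 and 1169.5 FPKM in 2-month cumulus cells. The 2-month library at 2.16 FPKM, in which 6 of the 10 oocyte markers were at 0, had a summed Mcm2 to Mcm7 of 541 FPKM. The one at 227 FPKM had the highest sum of its group, 575 FPKM, and the one at 1169.5 FPKM the lowest, 460.3 FPKM.

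Between ages, the 10 genes were at 58.1% (Cdc6) to 79.8% (Cdt1) of the 2-month mean in 10-month cumulus cells, but no difference passed the correction over all genes. For 7 of the 10 genes all 10-month libraries lay below all 2-month libraries, against a background of 8.88% of genes in that direction; Mcm7, Cdt1 and Gins2 overlapped. limma called 0 of 12412 genes (0.0%) at an adjusted p under 0.05, with a smallest adjusted p of 0.0869. At an unadjusted p under 0.05, 8 of the 10 genes were lower at 10 months, against 6.19% of all genes. The median log2 difference, 10-month minus 2-month, was -0.49 over the 10 genes and -0.02 over all genes tested.

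Cdc6 had the largest difference of the 10 genes, averaging 6.05 ± 1.25 FPKM at 10 months and 10.4 ± 1.05 FPKM at 2 months (SD, n = 3 each), a log2 difference of -0.71 ± 0.17 (SE; limma, unadjusted p = 0.00308, adjusted p = 0.213). Mcm4, with 32.1 ± 4.26 FPKM at 10 months and 45.9 ± 1.22 FPKM at 2 months, differed by -0.51 ± 0.12 (limma, unadjusted p = 0.00363, adjusted p = 0.213). At the other end, Gins2 averaged 34.4 ± 9.39 FPKM at 10 months and 43.4 ± 6.74 FPKM at 2 months, a difference of -0.35 ± 0.22 (limma, unadjusted p = 0.151, adjusted p = 0.527). Cdt1 differed by -0.36 ± 0.26 (limma, unadjusted p = 0.20, adjusted p = 0.58). The remaining 6 genes differed by -0.62 (Mcm5) to -0.40 (Mcm10), with limma adjusted p of 0.256 to 0.337.

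The third 10-month library had the lowest value of its group in each of the 10 genes, and it also held the most mural marker RNA: the 5 mural markers summed to 87.0, 377 and 980.1 FPKM at 10 months, against 64.8 to 90.4 FPKM at 2 months. Immune markers summed to 22.9, 58.3 and 76.5 FPKM at 10 months, against 4.34 to 6.27 FPKM at 2 months, and theca and stroma markers to 25.1, 30.7 and 53.9 FPKM, against 6.62 to 7.39 FPKM. Endothelial markers overlapped, at 4.08, 4.25 and 14.4 FPKM at 10 months and 1.60 to 4.76 FPKM at 2 months. Surface epithelium markers summed to 57.9, 50.5 and 106 FPKM at 10 months, against 26.4 to 34.9 FPKM at 2 months. For erythroid markers the sums were 20.1, 20.4 and 96.4 FPKM, against 13.3 to 18.3 FPKM. The part of these markers in the differences was not tested. The third 10-month library also had the lowest summed FPKM of its group, 489474 against 563913 and 592161. With libraries scaled to the same sum, Mir and Snor genes left out, the median of the 10 differences was -0.50. Without the third library the 10 differences ran from -0.58 (Cdc6) to -0.08 (Cdt1), with a median of -0.33. In that fit 6 genes were at an unadjusted p under 0.05 by limma. The share of all genes at that threshold in the same fit was not computed, so this count has no background.

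Against 10-month cumulus cells, where age and cell type differ together, mural cells were lower in 6 of the 10 genes by limma (Mcm4, Mcm5, Mcm6, Mcm7, Cdt1 and Mcm10), against 7.77% of genes called lower and 14.7% called in either direction. The differences of these 6, mural minus 10-month cumulus, ran from -1.11 (Cdt1, adjusted p = 0.0425) to -0.51 (Mcm4, adjusted p = 0.0482), with the smallest limma adjusted p, 0.0167, for Mcm10. Mcm2, Mcm3, Cdc6 and Gins2 differed by -0.71, -0.41, -0.58 and -0.79, with limma adjusted p of 0.0529, 0.221, 0.0725 and 0.0671. The mural libraries lay below all 10-month libraries in 9 of the 10 genes, all but Mcm3, against 28.1% of all genes in that direction. This count of 6 moved with the settings. It fell when either mural library was left out, which leaves 1 mural library. With these 2 groups fitted alone it was 0, and with the mean log2 level of the oocyte markers as a covariate it was 2. It was 0 without the first and 2 without the second 10-month library. Without the second 2-month cumulus library, which enters the shared estimate of spread, it was 2. The matching counts over all genes are given in the closing section, as a range where 1 library was left out.

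Summed over Mcm2 to Mcm7, the helicase was at 216 and 218 FPKM in mural cells, at 394, 421 and 288 FPKM in 10-month cumulus cells, and at 575, 541 and 460.3 FPKM in 2-month cumulus cells; COC held 357 FPKM in DBA/2 and 514 FPKM in BDF1. The assembled ring holds its subunits in equal number, but the FPKM of their transcripts were not equal. Mcm4 was the lowest in all 10 libraries. The subunit with the highest FPKM exceeded Mcm4 by 2.16 to 2.83 times in C57BL/6 libraries. In DBA/2 and BDF1 COC it did so by 3.66 and 4.02 times. Shares within this sum do not depend on how a library was scaled. In mural cells Mcm3 held 23.7 ± 1.76% of the sum (SD, n = 2), against 20.1 ± 1.32% in 2-month cumulus cells (n = 3), and Mcm4 held 10.2 ± 0.229%, against 8.80 ± 0.980%. Mcm5 held 11.9 ± 0.354% in mural cells, against 14.4 ± 0.974% in 2-month cumulus cells. For these 3 subunits the mural and 2-month cumulus libraries did not overlap, though Mcm4 parted only at 10.037% against 9.935%. The shares of Mcm2, Mcm6 and Mcm7 overlapped. Shares were compared by their ranges, with no test and no background for shares. In levels, 3967 of 12412 genes did not overlap with mural cells lower, and 3177 with mural cells higher. Between the cumulus ages the mean share differed most for Mcm6, at 22.2 ± 0.833% at 10 months and 20.7 ± 1.01% at 2 months, with overlapping libraries.

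**Figure D3:**
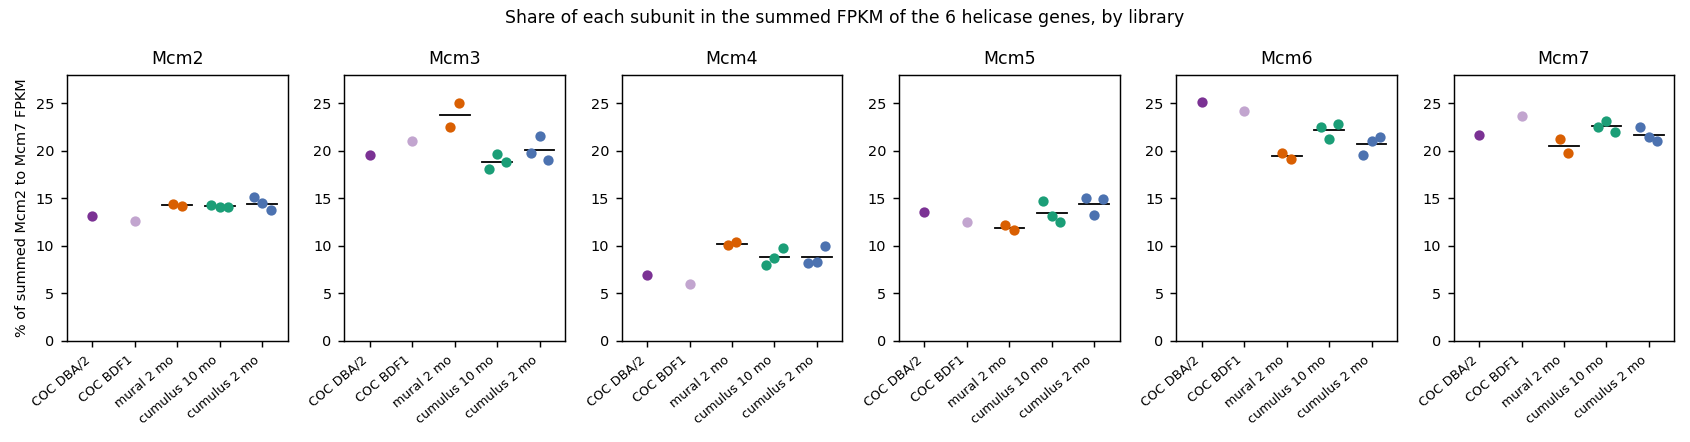
Share of each helicase subunit in the summed FPKM of Mcm2 to Mcm7 (y axis, percent), by group (x axis, 1 panel per subunit); points are libraries and lines are means of groups with 2 or 3 libraries. Mcm4 has 6.88% and 6.01% in DBA/2 and BDF1 COC, below its share in each of the 8 C57BL/6 libraries, and Mcm6 has 25.1% and 24.2%, above each of them.

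The COC had 1 library per strain, and strain, age, priming, depth and the oocyte's own RNA differ together from the C57BL/6 cumulus libraries, so no test was made. None of the 10 genes differed from the 2-month cumulus mean by 2-fold on the log2(FPKM + 1) scale in either strain, against a background of 19.7% (DBA/2) and 15.8% (BDF1) of 12713 genes. The genes did not all lie on one side. Mcm10 was at 34.9 FPKM in DBA/2 and 37.9 FPKM in BDF1 COC, 1.85 and 2.00 times the 2-month cumulus mean of 18.9 FPKM. Cdt1 was at 41.8 FPKM in DBA/2 and 45.8 FPKM in BDF1 COC, 1.33 and 1.45 times the cumulus mean of 31.5 FPKM. These were the genes above every 2-month cumulus library in both strains.

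Mcm4 was on the other side, at 24.5 FPKM in DBA/2 and 30.9 FPKM in BDF1 COC, below the lowest 2-month cumulus library at 44.8 FPKM. Mcm5, at 48.5 FPKM in DBA/2 and 64.1 FPKM in BDF1 COC, was also below its lowest 2-month cumulus library in both strains, at 68.7 FPKM. In DBA/2 COC, all genes other than Cdt1 and Mcm10 were below the lowest 2-month library: Mcm2 at 46.8, Mcm3 at 69.8, Mcm6 at 89.7, Mcm7 at 77.3, Gins2 at 29.3 and Cdc6 at 8.47 FPKM. In BDF1 COC, Mcm6 at 124 FPKM and Cdc6 at 14.0 FPKM were above every 2-month library, and Mcm2 at 65.0, Mcm3 at 108, Mcm7 at 122 and Gins2 at 39.3 FPKM were within their range. The share of all genes outside the 2-month range in COC was not computed, so these positions have no background. The median log2 ratio of the 10 genes to 2-month cumulus cells was -0.54 in DBA/2 and 0.07 in BDF1, beside 0.12 and 0.15 over all genes.

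Relative to the mean of Mcm2 to Mcm7 in the same library, Mcm10 was at 58.7% in DBA/2 and 44.2% in BDF1 COC, against 18.9% to 26.1% in the 8 C57BL/6 libraries. Cdt1 was at 70.3% and 53.4% in DBA/2 and BDF1 COC, against 23.9% to 45.2% in the C57BL/6 libraries. Cdc6 was at 14.2% and 16.4% in DBA/2 and BDF1 COC, against 9.17% to 12.3% in the C57BL/6 libraries. These 3 genes therefore lay above the C57BL/6 range in COC of both strains. Gins2 was at 49.3% in DBA/2 COC, within the C57BL/6 range of 47.3% to 59.2%, and at 45.8% in BDF1 COC, below it. Geminin, the inhibitor of Cdt1, was at 58.5% and 53.0% in COC, against 69.5% to 90.3% in the C57BL/6 libraries. The ratio of Cdt1 to Gmnn was 1.20 in DBA/2 and 1.01 in BDF1 COC, against 0.340 to 0.524 in C57BL/6. Oocyte markers summed to 2886 FPKM in DBA/2 and 3089 FPKM in BDF1 COC, against 2.16 to 1169.5 FPKM in the C57BL/6 libraries, and their part in these ratios was not tested. Within the C57BL/6 libraries, Cdc6 was at 9.87% and 10.4% in mural cells and at 9.17% to 10.4% at 10 months, against 11.5% to 12.3% in 2-month cumulus cells.

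**Figure D4:**
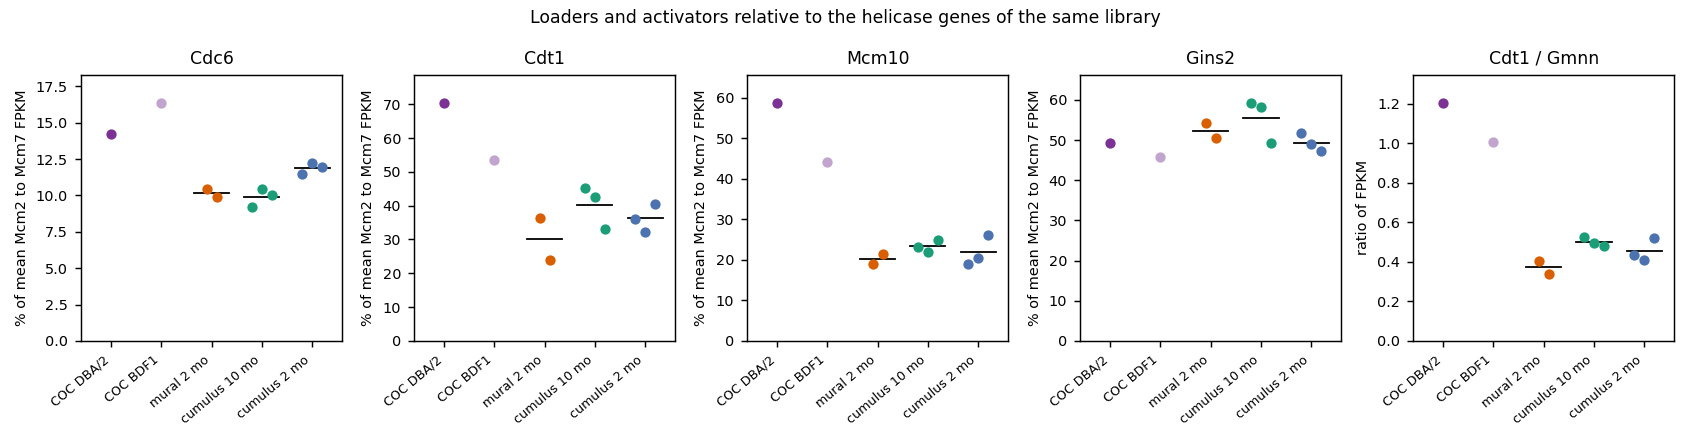
Cdc6, Cdt1, Mcm10 and Gins2 as a percentage of the mean FPKM of Mcm2 to Mcm7 in the same library (y axis, percent), and the ratio of Cdt1 to Gmnn FPKM (last panel), by group (x axis); points are libraries and lines are means of groups with 2 or 3 libraries. Mcm10 in COC is at 58.7% and 44.2%, above the 18.9% to 26.1% of the C57BL/6 libraries, and the Cdt1 to Gmnn ratio in COC, 1.20 and 1.01, is above their 0.340 to 0.524.

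The genes that act before, with and after the licensing genes were grouped into 7 lists of 71 genes, all of which were tested. In mural against 2-month cumulus cells 52 of the 71 were called lower and 0 higher by limma, with a median log2 difference of -0.92, beside -0.08 and 11.2% called lower over all genes. The count fell when either mural library was left out, which leaves 1 mural library, and so did the count over all genes. Without the second 2-month cumulus library 27 of the 71 were called, beside 1164 of all 12412 genes, 534 of them lower. Of the origin recognition complex, which marks the sites, 2 of 6 were called: Orc6 fell by 0.84 (18.3 ± 0.796 FPKM in mural and 33.6 ± 0.586 FPKM in 2-month cumulus cells; limma, adjusted p = 0.00708) and Orc2 fell by 0.69 (limma, adjusted p = 0.0483). Orc4 was at 11.4 ± 0.938 FPKM in mural and 11.3 ± 1.98 FPKM in 2-month cumulus cells, a difference of 0.02 (limma, adjusted p = 0.966). Orc1 was at 1.88 ± 0.376 FPKM in mural and 5.01 ± 2.28 FPKM in 2-month cumulus cells (limma, adjusted p = 0.0511).

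Of the licensing regulators and MCM relatives, 3 of 6 were called lower. Gmnn fell by 1.25 (29.0 ± 5.01 FPKM in mural and 70.1 ± 9.75 FPKM in 2-month cumulus cells; limma, adjusted p = 0.0178), and Mcm8, a helicase of recombination and repair, fell by 1.08 (limma, adjusted p = 0.00875). The third was Myst2 (Kat7), which acetylates histones at origins and fell by 0.63 (limma, adjusted p = 0.0223). Noc3l differed by -0.22 (limma, adjusted p = 0.296). Origin firing factors passed in 8 of 11 cases. Cdc45, which joins the ring, fell by 1.31 (limma, adjusted p = 0.00643), 5730590G19Rik (Ticrr), which brings it there, fell by 1.36 (limma, adjusted p = 0.0091), and Topbp1, a scaffold of this step, fell by 0.77 (limma, adjusted p = 0.0108). Gins3, another GINS subunit, was at 4.05 ± 0.166 FPKM in mural and 5.77 ± 1.01 FPKM in 2-month cumulus cells (limma, adjusted p = 0.133).

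Genes of the replication fork passed in 22 of 25 cases, with a median of -0.97; Clspn, a mediator of the fork checkpoint, fell by 1.11 (limma, adjusted p = 0.00486), Pole, the leading strand polymerase, fell by 0.96 (limma, adjusted p = 0.00608), and Chaf1b, of a chromatin assembly factor, fell by 1.17 (limma, adjusted p = 0.00608). Rpa3 was at 49.3 ± 5.36 FPKM in mural and 61.3 ± 6.21 FPKM in 2-month cumulus cells (limma, adjusted p = 0.457). All 6 genes of nucleotide supply were called lower. For example Rrm1, a ribonucleotide reductase subunit, fell by 1.06 (limma, adjusted p = 0.0113) and Dut, which degrades dUTP, fell by 1.37 (limma, adjusted p = 0.0124). Tk1, thymidine kinase, fell by 0.70 (limma, adjusted p = 0.0446).

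Control of S phase entry passed in 5 of 10 cases. Ccna2 (cyclin A) fell by 0.97 (limma, adjusted p = 0.00962), Cdc25a, a phosphatase that activates cyclin-dependent kinases, fell by 0.77 (limma, adjusted p = 0.00997), and E2f7, a repressor of the E2F family, fell by 0.74 (limma, adjusted p = 0.0192). E2f3 differed by -0.28 (limma, adjusted p = 0.19). The mitosis markers, which mark dividing cells but do not act in licensing, passed in 6 of 7 cases, with differences over the 7 of -1.37 to -0.71. Aurka, a mitotic kinase, fell by 1.37 (18.4 ± 0.356 FPKM in mural and 49.0 ± 2.97 FPKM in 2-month cumulus cells; limma, adjusted p = 0.00561), Plk1 fell by 1.19 (limma, adjusted p = 0.00886) and Mki67 fell by 0.91 (limma, adjusted p = 0.00941). Bub1 differed by -0.71 (limma, adjusted p = 0.0625).

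**Figure D5:**
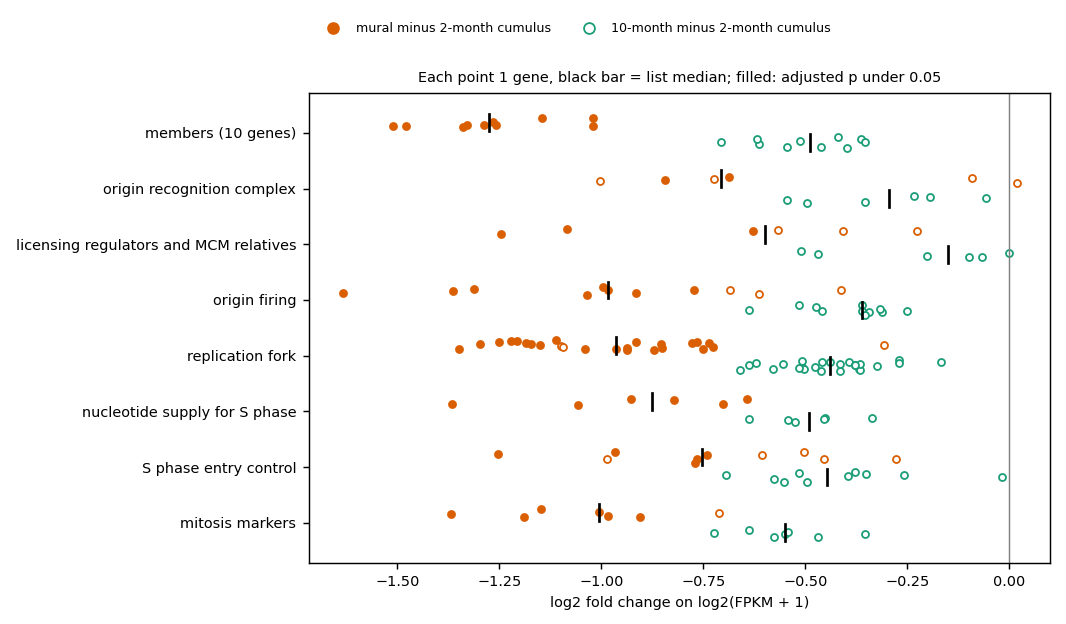
Log2 difference of each gene (x axis, log2 of FPKM + 1; points are genes, filled where the adjusted p was under 0.05, and bars are list medians) in the licensing genes and the 7 related lists (rows), for mural minus 2-month cumulus and 10-month minus 2-month cumulus cells. The list medians for mural cells run from -1.28 (licensing genes) to -0.60 (licensing regulators and MCM relatives), beside -0.08 over all genes.

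In 10-month against 2-month cumulus cells, 0 of the 71 genes were called by limma and 33 were lower at an unadjusted p under 0.05. The median was -0.45, beside -0.02 and 6.19% over all genes. Without the second 10-month library 4 were called, a count given here without the share over all genes in that fit. In mural against 10-month cumulus cells 13 of the 71 were called lower, with a median of -0.43, beside 7.77% and -0.06 over all genes. This count fell when either mural library was left out, which leaves 1 mural library. It was 0 without the first 10-month library and 28 without the third. With these 2 groups fitted alone or with the oocyte covariate it was 0. Counts over all genes under these settings are given further on, those with 1 library left out as a range. The 3 comparisons share libraries, so they are not independent of each other. In COC, the 2-fold mark on the log2(FPKM + 1) scale was passed by 7 of the 71 genes in DBA/2 and 2 in BDF1, beside 19.7% and 15.8% of all genes. Orc5, of the origin recognition complex, was higher in both strains, at 81.6 FPKM in DBA/2 and 77.9 FPKM in BDF1 COC against 26.4 ± 9.13 FPKM in 2-month cumulus cells (SD, n = 3). Orc1 passed in DBA/2, at 12.2 FPKM, and was at 9.67 FPKM in BDF1, short of the mark, against 5.01 ± 2.28 FPKM in 2-month cumulus cells. Orc4 passed in BDF1, at 29.2 FPKM, and was at 17.4 FPKM in DBA/2, short of the mark, against 11.3 ± 1.98 FPKM in 2-month cumulus cells. Cdc45, Recql4, Prim1, Rfc4 and E2f8 were past it on the lower side in DBA/2, and 0 genes in BDF1.

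The licensing genes varied together over the 8 C57BL/6 libraries. Pearson's r between pairs of them ran from 0.836 to 0.993, with a median of 0.958 over 45 pairs; after group means were subtracted it ran from 0.489 to 0.989, with a median of 0.812. These are descriptions over libraries that share their scaling and fall into groups. By the same measure, on log2(FPKM + 1) and among 8412 candidates whose mean was 5 FPKM or more, the 8 genes most like the mean of Mcm2 to Mcm7 were Cdc45 (r = 0.995), Nono (0.993), Mthfd1 (0.992), Rad54l (0.992), Ppih (0.992), Tbp (0.991), Aurka (0.991) and Eno1 (0.989). Cdc45 was at 12.9 and 13.8 FPKM in mural cells, at 26.4, 28.9 and 19.5 FPKM in 10-month cumulus cells, and at 37.6, 37.0 and 29.7 FPKM in 2-month cumulus cells. In COC it was at 12.5 FPKM in DBA/2 and 18.9 FPKM in BDF1, below every cumulus library of 2 months. Aurka, at 81.4 FPKM in DBA/2 and 91.5 FPKM in BDF1 COC, was above all 8 C57BL/6 libraries, of which the highest had 52.3 FPKM.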

How the data were processed

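RNA-seq of 10 libraries was analysed from 1 table of FPKM values that the authors deposited, and whose processing notes, by the submitters, name TopHat2 2.1.0, Cufflinks 2.1.0 and the genome build mm9. No source used here gives the annotation, strandedness or absolute depth; 1 repeated header line was dropped. Relative depth is the commonest FPKM ratio of low genes to the second 2-month cumulus library. Values were put on a log2(FPKM + 1) scale, which shrinks the fold changes of weakly expressed genes. The 12412 genes averaging at least 1 FPKM over the 8 C57BL/6 libraries entered 1 three-group model in limma 3.58.1 (R 4.3.3, intensity trend, 5 residual degrees of freedom; two-sided, Benjamini-Hochberg over all genes, threshold 0.05), tested on simulated data. COC were compared by ratio to the mean log2 value of 2-month cumulus cells, over genes with a mean of at least 1 FPKM in all 10 libraries. The genes, lists and tests were chosen with earlier results of these data known. Named genes are the 10, from each list the 3 with the smallest and the 1 with the largest p in mural against 2-month cumulus cells, and the 8 nearest in pattern, leaving out predicted, Mir and Snor genes (1 gene that the rule names is not reported here); Gse1, Ap4m1 and the COC genes past 2-fold were added after values were seen. Promoters were matched by symbol, since the reference is of another build than mm9. No coordinates come from the table.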

Additional observations from a re-analysis of the deposited data

How the results depend on the processing

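Under 21 alternatives per comparison (pseudocount, filter, scaling, library weights, replicate block, covariate, groups fitted alone, libraries left out), none of the 10 genes changed direction. In mural against 2-month cumulus cells, 194 of 210 values passed, ranging from -1.75 to -0.81; in 10-month against 2-month cumulus cells, 0 of 210 passed, from -0.83 to -0.08; in mural against 10-month cumulus cells, 96 of 210 passed, from -1.40 to -0.18. Leaving out 1 library gave 0 to 10 of the genes in the first comparison and 0 to 9 in the third, where the count of 6 became 10 with the replicate block, 0 with the compared groups alone, 2 with the oocyte covariate and 10 without the third replicate of both cumulus groups. Over all genes, mural against 2-month cumulus calls were 2599, 5425 with library weights and 99 to 3253 with 1 library left out. Calls of 10-month against 2-month cumulus cells were 0, 69 with library weights, 7 without the third replicate of both cumulus groups and 0 to 245 with 1 library left out. Mural against 10-month cumulus calls were 1826, 3793 with library weights, 460 with the compared groups alone, 547 with the oocyte covariate, 2822 without the third replicate of both cumulus groups and 24 to 2636 with 1 library left out. The causes of these shifts were not tested, beyond the smaller number of libraries where some were left out. Scaling libraries to the same summed FPKM moved the median of all genes from -0.08 to 0.11 in the first comparison and from -0.06 to 0.14 in the third. The calls then split into 1700 higher and 957 lower (1203 and 1396 as reported), and into 1591 and 626 (861 and 965 as reported). Whether replicate numbers pair libraries is not known. Correlations of same-numbered deviations ran from -0.052 to 0.214, and those of differently numbered ones from -0.214 to 0.17. Deviations from the means of such small groups are tied to each other, so these values cannot decide it. The replicate block gave 3361, 0 and 2428 genes in the 3 comparisons. COC values have no replicate and rest on 0.254 and 0.259 of the depth of the second 2-month cumulus library.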

Other observations

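Of the 3 microRNA genes that overlap Mcm7, Mir93 and Mir106b were listed at 0 in all 10 libraries, and Mir25 was listed at 0 in 8 of 10 with values of up to 545 FPKM in the others. FPKM of such short genes are unstable, and no change is read from them.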
